A study of Mus musculus with 16 samples.

Results

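Atf3, Tnfrsf12a, Mustn1, Crem, Srxn1, Panx1, Ptx3, Epgn, Tceal7 and Adamts1 are 10 genes of tissue stress, growth and repair, out of 24454 genes counted in mouse gastrocnemius muscle. They were chosen by name from these same libraries because their mean response to AICAR differed between mutant and control mice. The values behind that choice, the AICAR effect in each genotype and the difference between the effects, are therefore given as a description, with the standard error (SE) and without a test. In 9 of the 10 genes, all but Adamts1, vehicle-treated mutant muscle had a higher mean than vehicle-treated control muscle, and AICAR-treated mutant muscle had a lower mean than vehicle-treated mutant muscle. The average of the genotype difference over both treatments was not itself used for the choice, but it is not fully independent of the values that were. It passed the test for 9 of the 10 genes, where 37.4% of the 15487 genes tested passed.

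The samples were gastrocnemius muscles of 3-month-old mice, 1 library per mouse and 16 libraries in all. HSALR mice, homozygous for a human skeletal actin (HSA) transgene with an expanded CTG repeat and all of a single transgenic line, received vehicle (n = 5) or AICAR (n = 5), and FVB/N mice of the background strain without the transgene received vehicle (n = 3) or AICAR (n = 3). AICAR was given at 500 mg/kg for 7 days, by a route not given in the sources used here. The HSALR mouse is a model of myotonic dystrophy type I in which the actin promoter restricts the repeat RNA to skeletal muscle fibres. The transgene is human and its transcript was not analysed here, so the genotype could not be checked from it.

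AICAR is a nucleoside that cells phosphorylate into a mimic of AMP, which activates AMP-activated protein kinase (AMPK), the energy sensor of the muscle fibre. In skeletal muscle, strain, contraction and damage are known to induce a set of transiently expressed genes that encode stress transcription factors, receptors for inflammatory ligands, membrane channels, redox repair enzymes and secreted proteins of the matrix. Atf3 is a classical example among the transcription factors, Tnfrsf12a among the receptors and Ptx3 among the secreted proteins.

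Sequencing depth was between 64890014 and 81987726 counts per library. The lowest count of a member was 15 (Epgn in a control mouse). In the control groups, where Epgn had 15 to 33 counts per library, counting error adds to its spread by a part that was not estimated. Levels are given as CPM, the count scaled to a common library size after normalization by the trimmed mean of M values (TMM), and a mean is given with its standard deviation (SD). The 7 muscle fibre markers summed to between 103517 and 155214 CPM in each library. Epidermal transcripts were seen in 6 libraries, with the basal keratin Krt14 over 1 CPM (1 vehicle control, 1 AICAR control and the 4 HSALR vehicle mice S452, S453, S458 and S459). The 9 epidermal markers were all lower with AICAR in HSALR mice, and their sum was 3.74 to 298 CPM in HSALR vehicle, 2.47 to 3.1 CPM in HSALR AICAR, 2.26 to 141 CPM in control vehicle and 2.39 to 165 CPM in control AICAR libraries. Among HSALR mice, epidermal transcripts and treatment therefore moved together. Their part in the results was examined by fits without these libraries and by a fit with an epidermal score as covariate. In every fit without these libraries, S451 was the only HSALR vehicle mouse left. As these are bulk libraries, more cells of a type and more RNA per cell cannot be told apart.

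The 250 bases before the annotated start site were read for 9 members from RefSeq (GRCm38.p6, the assembly that mm10 denotes); Crem had no entry. They were searched on both strands for TGANTCA (the AP-1 site bound by Fos, Jun and Atf3 dimers), TGACGTCA (the cAMP response element, CRE), TGACG (the CRE core, which every full CRE contains and which can overlap the ARE), TGACNNNGC (the antioxidant response element, ARE), TATAAA and the CArG box of serum response factor. The 4 windows below are shown because Srxn1 alone held AP-1 matches, because Atf3 had the largest difference between AICAR effects, and because Epgn and Adamts1, which responded in opposite directions, both held a TATAAA. Capitals mark matches on either strand to the AP-1 site, the CRE core or TATAAA. The windows lie at chr1:191183334-191183583 (minus strand) for Atf3, chr2:152105274-152105523 (plus) for Srxn1, chr5:91027267-91027516 (plus) for Epgn and chr16:85803114-85803363 (minus) for Adamts1, each written 5′ to 3′ in the direction of transcription.
Atf3: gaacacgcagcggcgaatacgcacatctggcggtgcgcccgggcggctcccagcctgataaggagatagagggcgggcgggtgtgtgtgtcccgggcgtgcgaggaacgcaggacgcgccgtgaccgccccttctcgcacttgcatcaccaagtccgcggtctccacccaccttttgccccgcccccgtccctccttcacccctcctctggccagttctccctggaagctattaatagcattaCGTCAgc
Srxn1: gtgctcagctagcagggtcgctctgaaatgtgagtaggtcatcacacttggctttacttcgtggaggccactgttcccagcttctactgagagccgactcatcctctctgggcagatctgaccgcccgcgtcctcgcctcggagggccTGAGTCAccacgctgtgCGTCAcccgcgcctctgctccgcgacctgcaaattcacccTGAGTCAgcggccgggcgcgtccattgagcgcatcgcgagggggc
Epgn: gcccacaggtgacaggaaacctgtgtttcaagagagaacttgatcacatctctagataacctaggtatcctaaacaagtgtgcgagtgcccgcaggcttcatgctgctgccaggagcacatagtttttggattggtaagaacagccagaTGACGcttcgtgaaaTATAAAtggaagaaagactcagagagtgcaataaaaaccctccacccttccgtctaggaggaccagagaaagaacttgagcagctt
Adamts1: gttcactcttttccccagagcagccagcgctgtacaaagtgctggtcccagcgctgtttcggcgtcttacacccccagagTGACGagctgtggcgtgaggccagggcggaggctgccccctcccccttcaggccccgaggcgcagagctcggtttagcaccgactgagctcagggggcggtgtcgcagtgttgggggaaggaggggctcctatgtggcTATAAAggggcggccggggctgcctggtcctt

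With the last base before the start site counted as -1, Srxn1 held 2 AP-1 matches, at -102 to -96 and at -45 to -39, whereas 6.75% of 32851 mouse promoter windows of this length held at least 1. A CRE core was present in 6 of the 9 windows (Atf3, Srxn1, Panx1, Epgn, Tceal7 and Adamts1), against 17.8% of all windows. The full CRE was found in 0 of the 9 and in 1.55% of all windows, and the CArG box in 0 of the 9 and in 1.47%. TATAAA began at -86 in Epgn and at -32 in Adamts1, and 12.4% of all windows held one. Tceal7 held a match to the ARE form searched at -170 to -162, and 10.2% of all windows held one. In Srxn1, the AP-1 match at -45 to -39 and the next 2 bases read TGAGTCAgc. That has the ARE form with G in place of the first C, which was not searched. The GC content ranged from 46.8% in Epgn to 65.6% in Adamts1, with a median of 52.4% over all windows. The shares over all windows were not matched to the members for GC content, so they are no test of enrichment. These are matches of letters in a short window and do not show that a factor was bound.

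Atf3, a stress-induced transcription factor that dimerizes with other basic leucine zipper proteins (chr1:191170296-191183333, minus strand), had the lowest level in vehicle controls, at 7.62, 22.3 and 11.2 CPM. The AICAR controls had 19.2, 34.1 and 52.6 CPM. The HSALR vehicle mice had 208, 255, 146, 102 and 108 CPM, and the HSALR AICAR mice 61.4, 41.3, 82.4, 46.5 and 50.8 CPM. Every HSALR vehicle mouse thus lay above every other mouse, while the ranges of the 2 control groups overlapped, as did those of the 2 AICAR groups. The mean of HSALR vehicle (164 ± 66 CPM, SD, n = 5) was 11.9 times that of vehicle controls (13.7 ± 7.66 CPM, n = 3), and the mean of HSALR AICAR (56.5 ± 16.3 CPM, n = 5) was 4.12 times it. The AICAR effect was -1.54 (SE 0.34) in HSALR and 1.36 (SE 0.44) in control mice on the log2 scale, a difference of -2.90 (SE 0.56). The control effect was sensitive to single mice, at 1.90 without control vehicle mouse S446 and 0.96 without control AICAR mouse S449. Averaged over treatments, Atf3 was higher in HSALR mice by 2.13 on the log2 scale (SE 0.30, adjusted p = 5.4e-05, edgeR quasi-likelihood test).

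Crem encodes cAMP response element modulator, whose products include the early repressor ICER, and it lies on chromosome 18 between 3266354 and 3337773. Its levels were 10.3, 11.5 and 10 CPM in vehicle controls and 18.1, 16.3 and 16.6 CPM in AICAR controls. HSALR vehicle mice had 13.3, 17, 16.6, 12.6 and 11.7 CPM, and HSALR AICAR mice 10.7, 12.4, 9.83, 10.3 and 11.1 CPM. Crem was the only member with its highest mean in AICAR-treated controls (17 ± 0.936 CPM, n = 3), and those mice did not overlap the vehicle controls. In HSALR mice the 2 treatments overlapped. The AICAR effect was 0.68 (SE 0.13) in control and -0.39 (SE 0.10) in HSALR mice, so that the difference was -1.07 (SE 0.16). The genotype average was -0.11 (SE 0.08) and did not pass the test (adjusted p = 0.3). Crem shares 472 of its 5895 exonic bases with Gm6225 on the opposite strand. Since the use of strand in counting was not given in the sources used here, reads of the 2 genes cannot be told apart there. The counts are summed over all Crem transcripts, and ICER was not measured separately.

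Tnfrsf12a, also called Fn14 (chr17:23675445-23677449, minus strand), is the receptor of the cytokine TWEAK and is induced in injured muscle. Vehicle controls had 6.77, 18.6 and 11 CPM and AICAR controls 18.9, 17.8 and 27.6 CPM. In HSALR mice it stood at 108, 126, 101, 86.5 and 63.8 CPM after vehicle and at 39.2, 27.4, 48, 26.2 and 26.1 CPM after AICAR. The 5 HSALR vehicle mice stood above all other mice. After AICAR, 3 of the 5 HSALR mice lay below the highest AICAR control, at 27.6 CPM. The mean of HSALR vehicle was 8.01 times that of vehicle controls, and the mean of HSALR AICAR was 2.75 times it. The AICAR effect was -1.54 (SE 0.26) in HSALR and 0.82 (SE 0.34) in control mice, with a difference of -2.36 (SE 0.42). The control effect was 1.27 without control vehicle mouse S446 and 0.53 without S445. The genotype average was 1.82 (SE 0.22, adjusted p = 1.6e-05, edgeR).

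Panx1 encodes pannexin 1, a membrane channel that releases ATP from muscle fibres (chr9:15005785-15045478, minus strand). It was measured at 9.86, 10.8 and 14 CPM in vehicle controls and at 15.4, 16.1 and 20.4 CPM in AICAR controls. HSALR vehicle mice were close together at 33, 29.9, 30, 31.1 and 29.7 CPM, and HSALR AICAR mice had 22.3, 16.1, 23.9, 20.5 and 19.3 CPM. No vehicle control reached the AICAR controls, and no HSALR AICAR mouse reached the HSALR vehicle mice, whereas the AICAR-treated mice of both genotypes overlapped. The AICAR effects of 0.58 (SE 0.15) in control and -0.59 (SE 0.11) in HSALR mice were of nearly equal size and opposite sign. Their difference was -1.17 (SE 0.18). Averaged over treatments, the genotype difference was 0.82 (SE 0.09, adjusted p = 7.5e-06, edgeR).

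Epgn encodes epigen, a ligand of the epidermal growth factor receptor (chr5:91027517-91035212, plus strand), and was the least abundant member. Controls had 0.228, 0.191 and 0.421 CPM after vehicle and 0.412, 0.393 and 0.473 CPM after AICAR. HSALR vehicle mice had 8.64, 5.67, 5.75, 2.61 and 3.11 CPM, and HSALR AICAR mice 1.28, 1.16, 1.96, 1.22 and 1.18 CPM. All HSALR mice were above all controls, and the HSALR treatments did not overlap. The HSALR vehicle mean was 18.4 times the vehicle control mean, the largest ratio among the members, and the HSALR AICAR mean was 4.86 times it. The AICAR effect was -1.92 (SE 0.29) in HSALR and 0.60 (SE 0.46) in control mice, the latter being 1.02 without control vehicle mouse S450 and 0.39 without S446. The difference was -2.52 (SE 0.54), and the genotype average was 2.93 (SE 0.28, adjusted p = 1.5e-06, edgeR).

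Epgn is also expressed in skin, and the epidermal markers were lower with AICAR in HSALR mice as well. In HSALR vehicle libraries with 3.74, 55.7, 298, 29.2 and 107 CPM of epidermal markers, Epgn was at 8.64, 5.67, 5.75, 2.61 and 3.11 CPM, in the same order. Among controls, the vehicle library with 141 CPM of epidermal markers had the highest Epgn level of its group (0.421 CPM), and the AICAR library with 165 CPM had the lowest of its group (0.393 CPM). With the epidermal score as covariate, the AICAR effect on Epgn in HSALR mice was -2.04 and the genotype average 2.93. Without the 6 libraries over 1 CPM of Krt14, the AICAR effect on Epgn in HSALR mice was -2.67 and the genotype average 3.49. In that subset S451 was the only HSALR vehicle mouse left, and it is assumed to vary like the other groups.

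**Figure D1:**
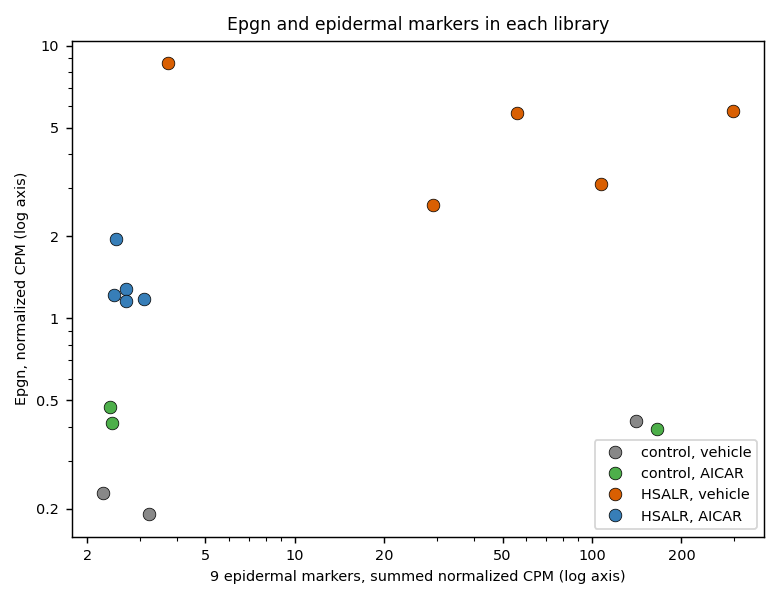
Each point is 1 library, with the summed normalized CPM of 9 epidermal markers on the horizontal axis and normalized CPM of Epgn on the vertical axis, both logarithmic, and colours give the 4 groups. The HSALR vehicle libraries lie between 2.61 and 8.64 CPM of Epgn over epidermal sums from 3.74 to 298 CPM, and the control libraries at 141 and 165 CPM have 0.421 and 0.393 CPM of Epgn.

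Mustn1 encodes a small nuclear protein of the musculoskeletal system that is induced during muscle growth and regeneration (chr14:30879257-30881610, plus strand). Vehicle controls had 37.5, 52.2 and 58.4 CPM and AICAR controls 42.8, 47.4 and 55.3 CPM. The HSALR vehicle mice had 358, 329, 329, 358 and 313 CPM, and the HSALR AICAR mice 121, 99.9, 149, 86.3 and 107 CPM. The 2 control groups lay within the same range, and the HSALR AICAR mice stood between them and the HSALR vehicle mice without touching either. The mean of HSALR vehicle (337 ± 19.9 CPM, n = 5) was 6.83 times that of vehicle controls (49.4 ± 10.7 CPM, n = 3) and 3 times that of HSALR AICAR (113 ± 23.7 CPM, n = 5). The AICAR effect in control mice was -0.03 (SE 0.18), and that in HSALR mice was -1.58 (SE 0.14), with a difference of -1.56 (SE 0.22). The genotype average was 1.99 (SE 0.12, adjusted p = 1.2e-08, edgeR), the smallest adjusted p among the members.

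Tceal7 encodes a small nuclear protein of the transcription elongation factor A like family, described in differentiating muscle cells (chrX:136224041-136226100, plus strand). Its levels were 22.9, 20.3 and 15.9 CPM in vehicle controls and 15.1, 11.3 and 12.1 CPM in AICAR controls. HSALR vehicle mice had 60.2, 74.9, 68, 77.8 and 69.5 CPM, and HSALR AICAR mice 16.1, 21.5, 18.2, 17.6 and 17.2 CPM. HSALR AICAR mice therefore lay within the range of vehicle controls, and their mean was 0.92 times that of vehicle controls. The AICAR-treated mice lay below the vehicle-treated mice in both genotypes, without overlap, at -0.62 (SE 0.14) in control and -1.95 (SE 0.11) in HSALR mice. The difference of -1.33 (SE 0.18) was thus one of size and not of direction. Over both treatments, HSALR mice differed from controls, at 1.16 (SE 0.09, adjusted p = 2.1e-07, edgeR). Reads that matched several positions equally well were assigned to 1 of them, so that sequence shared with relatives of Tceal7 makes its level uncertain to that extent.

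Srxn1 encodes sulfiredoxin 1, which repairs hyperoxidized peroxiredoxins (chr2:152105524-152111376, plus strand). Vehicle controls had 31.4, 36.8 and 32 CPM and AICAR controls 35, 51.5 and 57.7 CPM. The vehicle-treated HSALR mice had 63.6, 78.6, 76.3, 67 and 67.6 CPM, and those given AICAR 45.7, 41.7, 49.8, 42.5 and 48.9 CPM. Both AICAR groups shared a range between vehicle controls and HSALR vehicle mice, although the lowest AICAR control fell among the vehicle controls. The AICAR effects were 0.52 (SE 0.14) in control and -0.63 (SE 0.11) in HSALR mice, a difference of -1.15 (SE 0.18). Averaged over treatments, HSALR mice were higher by 0.50 (SE 0.09, adjusted p = 4.9e-04, edgeR). It was 0.44 without the 6 libraries with Krt14, where it no longer passed (adjusted p = 0.064).

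Ptx3 encodes a secreted pattern recognition protein of the pentraxin family (chr3:66219887-66225806, plus strand). Its levels were 7.6, 8.63 and 5.03 CPM in vehicle controls and 12.8, 17.2 and 19.7 CPM in AICAR controls. HSALR vehicle mice had 20.2, 26.1, 20.9, 24.3 and 24.7 CPM, and HSALR AICAR mice 14.1, 16.5, 16.8, 13.3 and 12.6 CPM. The AICAR-treated mice of both genotypes again overlapped, above every vehicle control and below every HSALR vehicle mouse. The mean of AICAR controls was 2.34 times that of vehicle controls. The AICAR effects were 1.23 (SE 0.19) in control and -0.67 (SE 0.14) in HSALR mice, and the difference was -1.89 (SE 0.24). The genotype average was 0.77 (SE 0.12, adjusted p = 1.4e-04, edgeR).

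Adamts1, a secreted metalloprotease that cleaves proteoglycans such as versican (chr16:85793827-85803113, minus strand), showed the reverse order. Vehicle controls had 55.5, 78.3 and 38.6 CPM and AICAR controls 38.7, 35.3 and 39.3 CPM. HSALR vehicle mice had 28.1, 28.6, 31.8, 29.3 and 28.7 CPM, below every other mouse, and HSALR AICAR mice 40.1, 43.7, 54.9, 47.5 and 43.8 CPM, above every AICAR control. The AICAR effect was 0.65 (SE 0.14) in HSALR and -0.61 (SE 0.18) in control mice, with a difference of 1.26 (SE 0.22). The vehicle control S446, at 78.3 CPM, weighed on these values, since without it the control effect was -0.32 and the difference 0.97. The genotype average was -0.34 (SE 0.11, adjusted p = 0.022, edgeR), and it was -0.20 and did not pass without S446 (adjusted p = 0.078). The 5 endothelial markers, of a cell type that also expresses Adamts1, were all lower in HSALR mice, with sums of 192 to 238 CPM in HSALR vehicle and 284 to 324 CPM in control vehicle libraries. After AICAR the sum was 226 to 241 CPM in HSALR and 288 to 306 CPM in control libraries. Whether endothelial content bears on Adamts1 was not tested.

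**Figure D2:**
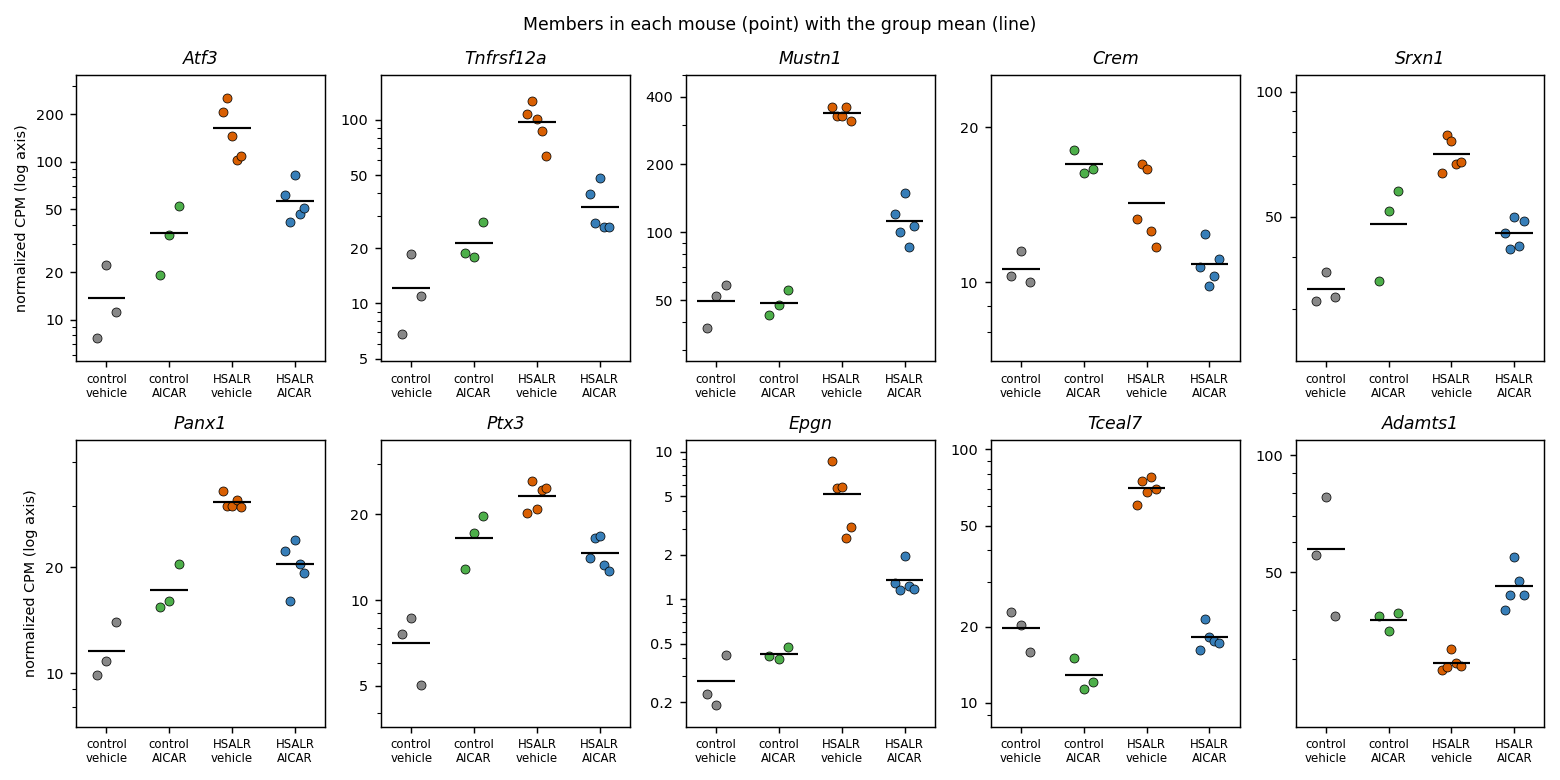
Normalized CPM of the 10 members on logarithmic axes, with 1 point per mouse and a line at the group mean for vehicle and AICAR controls (n = 3 each) and vehicle and AICAR HSALR mice (n = 5 each). The HSALR vehicle points lie above those of vehicle controls in 9 panels and below them in the panel of Adamts1.

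Across the 10 members, the levels of HSALR vehicle and control vehicle mice overlapped for none, with 9 higher and 1 lower in HSALR mice, where 29.7% of the 15487 genes tested did not overlap either, and 26.9% passed an adjusted p of 0.05 in either direction. In HSALR mice, AICAR and vehicle did not overlap for 9 members, 8 of them lower and 1 higher with AICAR (17.7% of all genes tested did not overlap, with 10.2% higher and 7.48% lower, and 26.6% passed). In control mice, AICAR and vehicle did not overlap for 4 members, with Crem, Panx1 and Ptx3 higher and Tceal7 lower with AICAR (33.1% of all genes tested did not overlap, and 13.2% passed), a share of the members near that of all genes. After AICAR, the 2 genotypes overlapped for 5 members, while 4 (Mustn1, Epgn, Tceal7 and Adamts1) were higher and 1 (Crem) was lower in HSALR mice (26.5% of all genes tested did not overlap, and 21.8% passed). The difference between AICAR effects, for which the members were selected, passed for 0.691% of all genes tested. The median of the members' AICAR effects was -1.10 in HSALR and 0.59 in control mice, beside medians of -0.020 and -0.008 over all genes. These counts follow from the choice of the members and are no evidence for a response of the group.

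**Figure D3:**
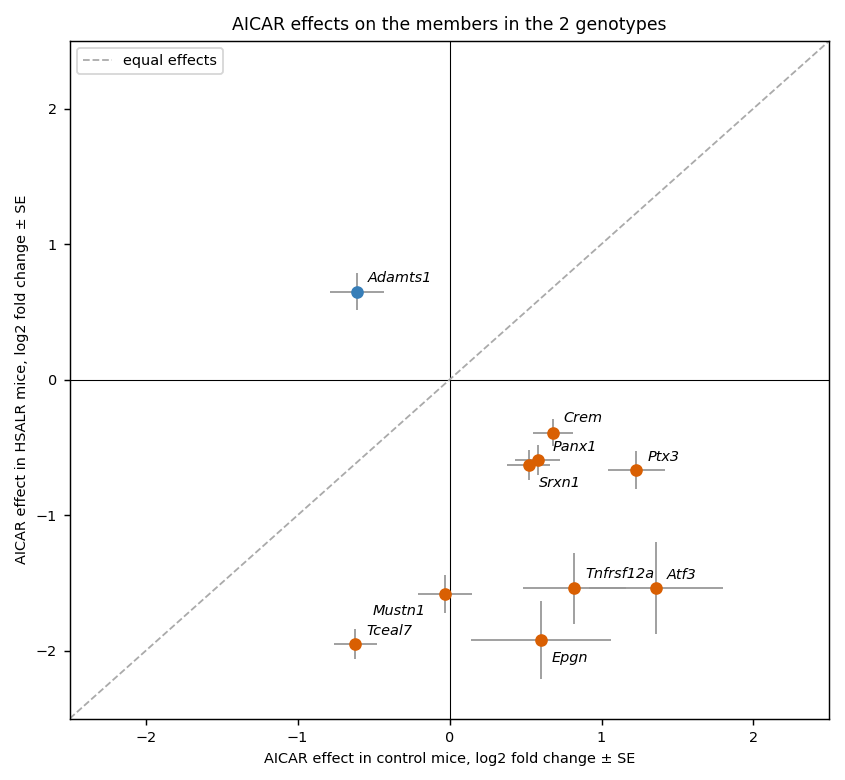
AICAR effect on each member in control mice (horizontal axis) and in HSALR mice (vertical axis) as log2 fold change, with bars of 1 SE, and a dashed line where both effects would be equal. Adamts1 lies above the dashed line and the other 9 members below it, and Tceal7 is negative on both axes, while Mustn1 is near 0 on the horizontal axis (-0.19 to 0.12 under the alternatives).

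The genotype average is the mean of the HSALR minus control difference after vehicle and after AICAR. With AICAR and vehicle mice equal in number within each genotype, it would be uncorrelated with both AICAR effects and with their difference if the groups varied equally. For several members they did not (the SD of Adamts1 was 19.9 CPM in vehicle and 2.17 CPM in AICAR controls), so this test is not fully independent of the values that chose the members. It passed for 9 of the 10 members, 8 higher and 1 lower in HSALR mice, where 37.4% of all genes tested passed (3167 higher and 2622 lower), and for 8 without the 6 libraries over 1 CPM of Krt14. A gene that differs in a single group also moves this average. The median over the members was 0.99 and that over all genes -0.002. Per kilobase of the gene length in the count table, the mean level in HSALR vehicle muscle was highest for Mustn1 (286 ± 16.9 CPM per kb), followed by Tnfrsf12a (101 ± 24.3), Atf3 (82.9 ± 33.4), Tceal7 (72.2 ± 7.01), Srxn1 (25.1 ± 2.31), Panx1 (14.8 ± 0.665), Ptx3 (12.1 ± 1.33), Adamts1 (6 ± 0.301), Crem (3.18 ± 0.538) and Epgn (3.02 ± 1.42, SD, n = 5 each). The intervals of mean ± SD overlapped for Tnfrsf12a, Atf3 and Tceal7, and for Crem and Epgn.

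Variation between mice of the same group was shared by some members. After subtraction of group means from log2 CPM, Atf3 and Tnfrsf12a correlated at r = 0.87 over the 16 libraries, Mustn1 and Panx1 at 0.76, Tnfrsf12a and Mustn1 at 0.72, and Atf3 and Srxn1 at 0.72. Tceal7 had negative values with Panx1 (-0.71), Epgn (-0.51) and Mustn1 (-0.48). Over the 45 pairs of members the median r was 0.31, and 32 pairs (71.1%) were positive, beside 49.7% of 17137472 pairs sampled from the genes tested (every 7th gene against all later ones). Within HSALR AICAR mice alone the median was 0.44 with 30 of 45 pairs positive, and within HSALR vehicle mice it was 0.10 with 25 of 45 (5 libraries each). HSALR AICAR mouse S460 stood above its group mean for 9 of the 10 members, by 0.28 on average on the log2 scale. HSALR vehicle mouse S459 stood above its group mean for 1 of 10, at -0.21 on average. The points share libraries, depth and scaling, and these correlations are given as a description.

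**Figure D4:**
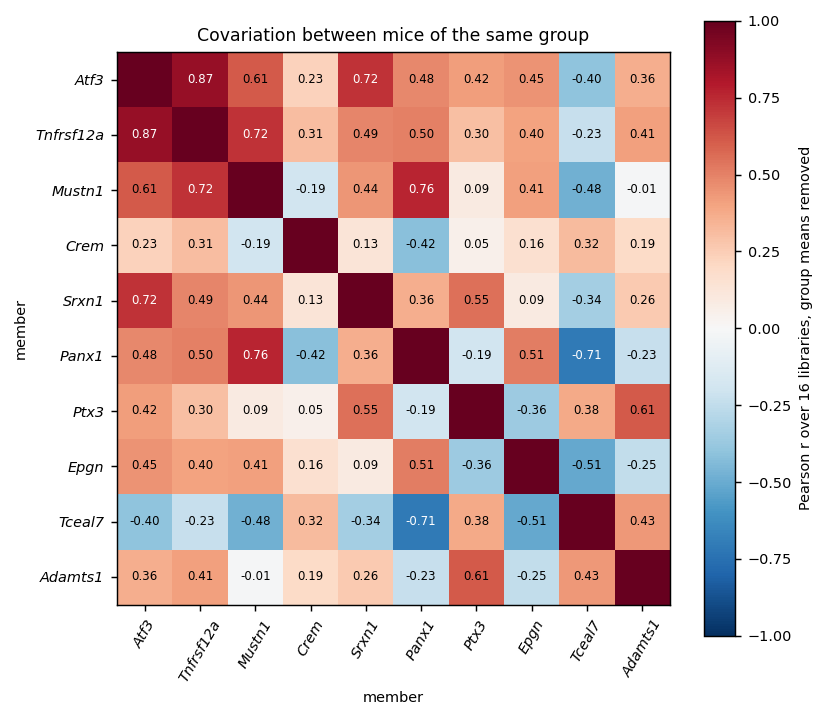
Pearson correlation of log2 normalized CPM between each pair of members over the 16 libraries after subtraction of group means, from -1 (blue) to 1 (red). The highest value is 0.87, between Atf3 and Tnfrsf12a, and the lowest is -0.71, between Panx1 and Tceal7.

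The genes whose levels over the 16 libraries were most like the mean of the standardized members were Nhp2 (r = 0.976), Cct3 (0.948), Xirp1 (0.943), Tubb6 (0.943), Hspb8 (0.942), Tgfb3 (0.940), Flnc (0.938), AI506816 (0.933), Rtn3 (0.932) and Rnf115 (0.925). Of 12991 genes compared, 31 (0.239%) had r over 0.9. Their amplitudes differed widely, as the means for Xirp1 were 195, 254, 803 and 292 CPM in vehicle controls, AICAR controls, HSALR vehicle and HSALR AICAR mice, and those for Nhp2 13.2, 14.5, 18.5 and 15.3 CPM. Of the members, Tnfrsf12a was most like the mean of the other 9 (r = 0.98), Crem was least like it in size (0.27) and Adamts1 was opposite (-0.75).

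Companion genes of each pathway, none of them members, were taken from 11 lists with 177 genes tested. The lists were chosen with earlier results of these data known, so their counts are no independent support. In the difference between AICAR effects, 0.207% of all genes tested were higher and 0.484% lower. Of the companion genes, 0 were higher and 4 lower in it (Runx1, Xirp1, Hspb1 and Hbegf), by edgeR. At an unadjusted p under 0.05, 9 were higher and 31 lower, and DESeq2 called 3 higher and 11 lower. With the epidermal score, and without the 6 libraries over 1 CPM of Krt14, 0 companion genes were called in this difference by edgeR (at an unadjusted p under 0.05, 11 were higher and 26 lower with the score, and 4 and 20 without the libraries). When single mice were left out, the count lower in this difference was 8, with 1 higher, without HSALR AICAR mouse S460. It was 4 without S447, S458 or S459, 2 without S451 or S453, and 1 without S446, S450 or S462. Without S445, S448, S449, S452, S454, S455 or S463 it was 0, with 1 higher without S449. Over all genes tested, 20.4% were higher and 16.9% lower in the genotype average, 13.7% higher and 13% lower with AICAR in HSALR mice, and 8.4% higher and 4.77% lower with AICAR in control mice, and the count of each list is to be read beside these shares. Of the 177 companion genes, 37 were higher and 25 lower in the genotype average, 17 higher and 40 lower with AICAR in HSALR mice, and 18 higher and 17 lower with AICAR in control mice. These counts became 25 and 11, 3 and 12, and 9 and 4 without the 6 libraries, where 178 genes were tested and fewer mice remained. With the epidermal score, AICAR in HSALR mice gave 8 higher and 28 lower, and without S460 it gave 17 higher and 52 lower. The count lower with AICAR in control mice was 7 without control AICAR mouse S448 and 6 without S449.

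Of 20 genes of muscle strain and regeneration tested, 16 were higher and 0 lower in HSALR mice on average, 13 were lower and 0 higher with AICAR in HSALR mice, and 6 were lower and 1 higher with AICAR in control mice, by edgeR. At an unadjusted p under 0.05, 1 was lower on average and 0 were higher with AICAR in HSALR mice, and DESeq2 also gave 1 and 0. When single mice were left out, the first 2 counts were 14 to 17 and 12 to 14, and the count lower in control mice was 3 (without control AICAR mouse S448 or S449) to 8 (without control vehicle mouse S445). The median log2 fold changes were 0.95 for the genotype average and -0.80 for AICAR in HSALR mice, beside -0.002 and -0.020 over all genes. Satellite cell markers, including Pax7 and Myf5 of this list, were higher in HSALR mice for 3 of 3. Their sums were 3.32 to 4.8 CPM in HSALR vehicle and 1.66 to 3.08 CPM in control vehicle libraries. After AICAR they were 2.4 to 3.15 CPM in HSALR and 1.11 to 1.66 CPM in control libraries, with 1 marker lower in each genotype. The part of these cells was not tested. Without the 6 libraries with Krt14, 14 were higher in HSALR mice on average, 5 were lower with AICAR in HSALR mice, and 2 were lower with AICAR in control mice.

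Xirp1, which binds actin at sites of fibre damage, had means of 803 ± 211 CPM in HSALR vehicle (n = 5) and 292 ± 59.6 CPM in HSALR AICAR mice (n = 5), against 195 ± 49.8 and 254 ± 129 CPM in vehicle and AICAR controls (n = 3 each). Its AICAR effect was -1.46 on the log2 scale in HSALR mice (SE 0.25, adjusted p = 6.4e-04) and 0.38 in control mice (adjusted p = 0.46), with a difference of -1.84 (SE 0.40, adjusted p = 0.0496). Hspb1, a small heat shock protein of the fibre, had an AICAR effect of -1.51 in HSALR (adjusted p = 7.1e-06) and -0.27 in control mice (adjusted p = 0.38), with a difference of -1.23 (SE 0.24, adjusted p = 0.03). Runx1, a transcription factor induced in denervated and damaged muscle, differed in another way. It was higher with AICAR in control mice by 1.68 (SE 0.30, adjusted p = 0.0026), was at -0.17 in HSALR mice (adjusted p = 0.62), and had a difference of -1.85 (SE 0.38, adjusted p = 0.035). Of the 16 fits that left out 1 mouse, Xirp1 and Runx1 passed in 4 each and Hspb1 in 6, while the differences stayed between -2.09 and -1.35 for Xirp1, -2.03 and -1.69 for Runx1 and -1.39 and -1.06 for Hspb1. None of the 3 passed with the epidermal score, where the differences were -1.96 for Xirp1 (adjusted p = 0.064), -1.78 for Runx1 (adjusted p = 0.076) and -1.21 for Hspb1 (adjusted p = 0.064). Without the 6 libraries, the differences were -2.38, -2.14 and -1.57. S451 was then the only HSALR vehicle mouse, so these sizes rest on that mouse.

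Among the epidermal growth factor (EGF) family, Hbegf, another ligand of the receptor that Epgn binds, was the gene with a called difference. Its means were 8.54 ± 0.553 and 20.5 ± 5.21 CPM in vehicle and AICAR controls (n = 3 each), and 25.9 ± 3.72 and 18.4 ± 7.26 CPM in HSALR mice (n = 5 each). The AICAR effect was 1.26 in control (SE 0.27, adjusted p = 0.0066) and -0.49 in HSALR mice (SE 0.20, adjusted p = 0.084), with a difference of -1.75 (SE 0.34, adjusted p = 0.029). It passed in 7 of the 16 fits that left out 1 mouse, with differences from -2.02 to -1.53, and did not pass with the epidermal score (-1.82, adjusted p = 0.051) or without the 6 libraries (-1.73, adjusted p = 0.37). Of the 11 genes tested, 3 were higher and 3 lower in HSALR mice on average, and 1 and 2 without the 6 libraries. Egfr, the receptor itself, did not pass in either genotype (0.55 in control, adjusted p = 0.18, and 0.37 in HSALR mice, adjusted p = 0.19).

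In the TCEAL and BEX family, X-linked relatives of Tceal7, 6 of 9 genes were higher and 1 lower in HSALR mice on average, and 4 were lower and 0 higher with AICAR in HSALR mice. The 1 lower on average was lost in 11 of the 16 fits that left out 1 mouse, with the epidermal score and without the 6 libraries. With AICAR in HSALR mice, 0 were higher also at an unadjusted p under 0.05 and by DESeq2. Without the 6 libraries with Krt14, 3 were higher on average and 1 was lower with AICAR in HSALR mice. Bex1 had means of 11.8 ± 1.37 CPM in vehicle controls (n = 3), 21.5 ± 2.13 CPM in HSALR vehicle and 11.8 ± 2.32 CPM in HSALR AICAR mice (n = 5 each). Its AICAR effect was -0.87 in HSALR mice (SE 0.13, adjusted p = 2.8e-04) and -0.15 in control mice (adjusted p = 0.62), and their difference of -0.72 did not pass (adjusted p = 0.13). Bex4 had effects of -0.92 in HSALR (adjusted p = 0.0015) and -0.02 in control mice (adjusted p = 0.97), with a difference of -0.90 (adjusted p = 0.17).

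Tnfsf12, which encodes TWEAK, the ligand of Tnfrsf12a, was near 9 CPM in each group, with means from 8.73 ± 1.15 CPM (AICAR controls, n = 3) to 9.79 ± 0.513 CPM (vehicle controls, n = 3) and a genotype average of 0.05 (SE 0.11, adjusted p = 0.74). In the list of TWEAK and noncanonical NF-kB signalling, 2 of 15 genes were higher and 1 lower in HSALR mice on average. With single mice left out, 1 to 2 were higher and 0 to 2 lower, and without the 6 libraries both counts were 0 by edgeR, where 2 were higher and 1 lower at an unadjusted p under 0.05. Map3k14, the NF-kB inducing kinase, was higher with AICAR in control mice by 1.70 (SE 0.29, adjusted p = 0.0016), with 0.46 in HSALR mice (adjusted p = 0.14). Fbxo32, an atrophy ubiquitin ligase, was higher with AICAR in HSALR mice by 1.55 (SE 0.25, adjusted p = 4.8e-04), with 0.07 in control mice (adjusted p = 0.92). The differences, -1.25 and 1.48, did not pass (adjusted p = 0.12 and 0.11, edgeR). DESeq2 called 1 gene of the list higher and 2 lower in this difference, and edgeR gave the same counts without S460.

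For Srxn1, the list of NRF2 targets and peroxiredoxins had 2 of 23 genes higher and 5 lower in HSALR mice on average. With AICAR, 6 were higher and 2 lower in control mice, and 4 higher and 1 lower in HSALR mice. After removal of the 6 libraries with Krt14, 1 was higher and 2 lower on average, 1 higher and 1 lower with AICAR in HSALR mice, and 0 were called with AICAR in control mice by edgeR, where 8 were higher and 2 lower at an unadjusted p under 0.05. With single mice left out, the counts in control mice were 4 (without S445 or S449) to 6 higher and 0 (without S445, S448 or S450) to 2 lower, and those in HSALR mice were 3 to 5 higher and 1 to 2 lower. Hmox1, which encodes heme oxygenase 1, was higher with AICAR in both, by 1.65 in control (SE 0.32, adjusted p = 0.0041) and 1.05 in HSALR mice (SE 0.25, adjusted p = 0.0058). Nfe2l2, the gene of NRF2 itself, was higher with AICAR in control mice by 0.49 (adjusted p = 0.035), with 0.23 in HSALR mice (adjusted p = 0.15). Of the peroxiredoxins that sulfiredoxin can repair, Prdx1 was lower in HSALR mice on average, at -0.16 (adjusted p = 0.0022), Prdx2 higher by 0.16 (adjusted p = 0.027), and Prdx3 (-0.08, adjusted p = 0.087) and Prdx4 (0.13, adjusted p = 0.33) did not pass. Keap1 was at 0.01 (adjusted p = 0.89).

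For Atf3 and Crem, the list of ATF, CREB and bZIP partners had 2 of 21 genes higher and 4 lower in HSALR mice on average. The count lower was 1 without the 6 libraries, and 0 were higher there by edgeR (1 higher and 2 lower at an unadjusted p under 0.05). Atf5 was lower with AICAR in both genotypes, at -0.60 in HSALR (adjusted p = 1.7e-04) and -0.57 in control mice (adjusted p = 0.0038). Batf2 was lower with AICAR in control mice, at -1.55 (adjusted p = 0.037), with -0.70 in HSALR mice (adjusted p = 0.14). Among 12 cAMP-responsive genes, 3 were higher and 2 lower with AICAR in HSALR mice, and 2 were higher and 1 lower in control mice. In HSALR mice the counts were 1 higher and 1 lower with the epidermal score, and 0 without the 6 libraries by edgeR, where 3 were higher and 0 lower at an unadjusted p under 0.05. With single mice left out, 3 were higher in HSALR mice in each of the 16 fits, while the count lower stayed at 2 without S448, S449 or S460, was 1 without S446, S447, S451, S459 or S462, and was 0 in the remaining fits. In control mice 0 were lower without S446, S448 or S449, and 2 were lower without S460. Nr4a3 was higher with AICAR by 4.26 in control (SE 0.75, adjusted p = 0.0021) and 2.55 in HSALR mice (SE 0.55, adjusted p = 0.0032). Ppargc1a, a coactivator of oxidative metabolism, was higher by 1.66 (SE 0.27, adjusted p = 0.0011) and 0.74 (SE 0.20, adjusted p = 0.014), respectively. Both are induced in muscle by contraction, and their differences of -1.71 and -0.92 did not pass (adjusted p = 0.36 and 0.21).

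Of 18 immediate early and AP-1 genes, 3 were higher and 2 lower in HSALR mice on average, by edgeR. The list includes the Fos and Jun genes, whose products bind the AP-1 site. With AICAR, 3 were lower and 0 higher in HSALR mice, and 3 were lower and 1 higher in control mice. For AICAR in HSALR mice, 3 were higher and 8 lower at an unadjusted p under 0.05, and DESeq2 called 0 higher and 6 lower. The count lower was 8 without HSALR AICAR mouse S460, 6 without HSALR vehicle mouse S452, and 1 without the 6 libraries with Krt14. On average, the count lower was 1 without S446 or S447 and 0 without S450 or without the 6 libraries. Maff was higher with AICAR in control mice by 2.25 (SE 0.49, adjusted p = 0.0077), with 0.87 in HSALR mice (adjusted p = 0.1). Gadd45g was lower with AICAR in control mice, at -2.36 (SE 0.61, adjusted p = 0.02), with -0.89 in HSALR mice (adjusted p = 0.17). Its call was lost without control AICAR mouse S449. The list count lower with AICAR in control mice was then 0, and it was 1 without S446 or S450.

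For Panx1, 3 of 15 pannexin and purinergic genes were lower in HSALR mice on average, a share near the 16.9% of all genes, and 0 were higher by edgeR. Of these genes, 0 were higher also at an unadjusted p under 0.05 and by DESeq2, and 1 was lower without the 6 libraries. P2rx6, an ATP-gated channel, was lower with AICAR, at -0.46 in HSALR (adjusted p = 0.0098) and -0.57 in control mice (adjusted p = 0.021). Its call in control mice was lost when S445, S446, S448 or S449 was left out. Entpd1, which degrades extracellular ATP, was higher by 0.43 in HSALR (adjusted p = 0.0037) and 0.44 in control mice (adjusted p = 0.025). Its call in control mice was lost when S445, S446, S448, S449 or S450 was left out. For Ptx3, 1 of 11 pentraxins and inflammatory mediators was higher and 0 lower on average (by edgeR; 1 lower by DESeq2 and at an unadjusted p under 0.05), and 2 were higher without the 6 libraries or without S448. The chemokine gene Ccl2 was higher with AICAR by 1.84 in control (adjusted p = 0.0026) and 0.96 in HSALR mice (adjusted p = 0.012), and Has2, a hyaluronan synthase, was lower with AICAR in HSALR mice, at -0.97 (adjusted p = 0.0063). The 7 macrophage markers summed to 164 to 225 CPM in vehicle controls, 167 to 199 CPM in AICAR controls, 182 to 250 CPM in HSALR vehicle and 196 to 303 CPM in HSALR AICAR mice, with 2 higher and 1 lower with AICAR in HSALR mice.

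For Adamts1, 2 of 22 ADAMTS proteases, inhibitors and substrates were higher and 3 lower in HSALR mice on average, and 5 were lower without S448. With AICAR, 3 were higher and 6 lower in HSALR mice and 3 were higher and 1 lower in control mice. The counts in HSALR mice were 1 higher and 1 lower with the epidermal score, 2 higher and 2 lower without the 6 libraries with Krt14, and 1 to 3 higher and 4 to 6 lower with single mice left out. Adamts9 was higher with AICAR in control mice by 2.32 (SE 0.45, adjusted p = 0.0039), with 0.90 in HSALR mice (adjusted p = 0.062), and thus did not share the sign of Adamts1 in control mice. Adamts16 was lower with AICAR in HSALR mice, at -1.43 (adjusted p = 0.024). Fibroblast markers, of cells that also make these proteases, were lower with AICAR in HSALR mice for 3 of 5, with sums of 959 to 1285 CPM against 1236 to 1657 CPM after vehicle, and their part was not tested.

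**Figure D5:**
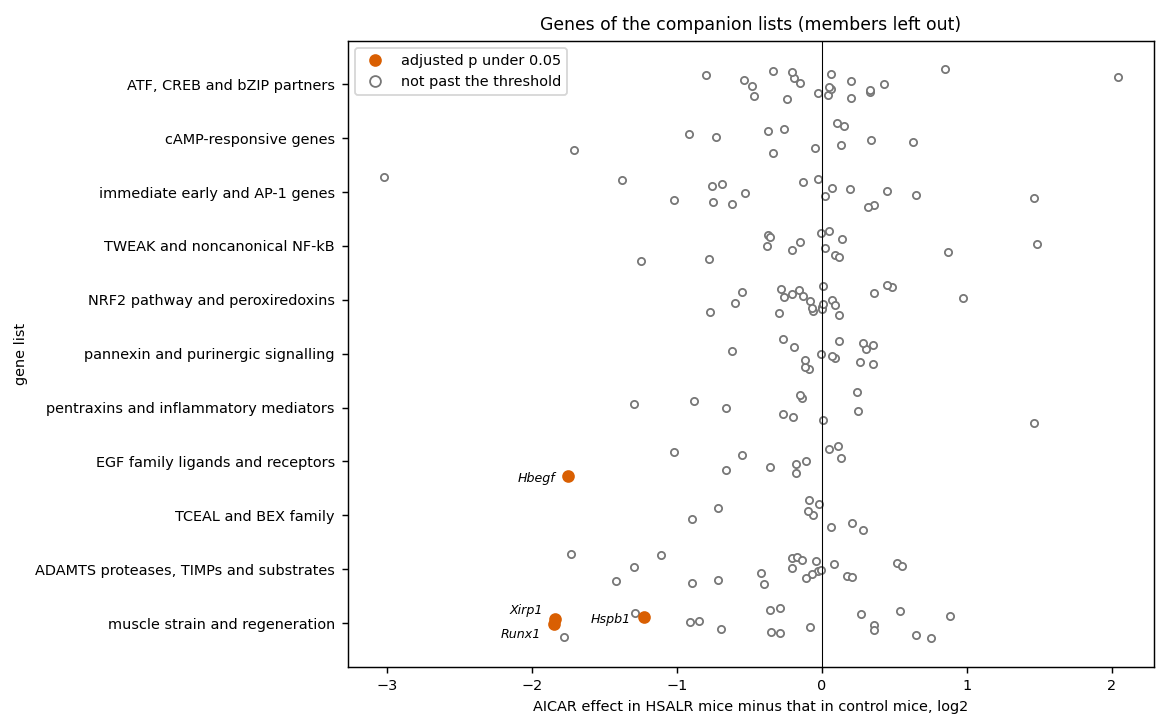
Difference between the AICAR effect in HSALR and in control mice (log2, horizontal axis) for each gene of the 11 companion lists (rows, with vertical scatter for legibility), with filled points past an adjusted p of 0.05. Runx1, Xirp1, Hspb1 and Hbegf are the 4 filled points, all to the left of 0.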

How the data were processed

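The authors aligned single-end reads of stranded mRNA libraries to mm10 (STAR 2.5.2a), kept 1 position of reads that matched several, and counted read starts in RefSeq exons with QuasR. The deposited table holds raw counts per Entrez gene. The 24454 identifiers were paired with symbols from RefSeq (24374 matched, 80 did not). Members and gene lists were chosen with earlier results of these data known. Counts of all 16 libraries were fitted in edgeR 4.0.16 (R 4.3.3) with 1 mean per group, TMM scaling and filterByExpr, which kept 15487 genes, all 10 members among them. Quasi-likelihood tests were adjusted by Benjamini-Hochberg over these genes, with a threshold of 0.05; SE is the log2 fold change over the root of F. The script was tested on simulated data. Named genes were the members, up to 3 genes per list with the largest called difference between AICAR effects (otherwise up to 2 called in either AICAR effect), the 10 most like the members (mean count of at least 50) and fixed partners (Tnfsf12, Egfr, Nfe2l2, Keap1, Prdx1 to Prdx4). Alternatives were other scalings and filters, a robust fit, DESeq2 1.42.0, limma 3.58.1 with voom, an epidermal score, each mouse left out, and, chosen after seeing the data, the 6 libraries over 1 CPM of Krt14 left out. Mice were separate animals, each with its own library. Single-transcript levels and splicing were not analysed here.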

Additional observations from a re-analysis of the deposited data

Results flagged for a closer look

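Every AICAR-treated control lay on one side of the vehicle control mean and every AICAR-treated HSALR mouse on the opposite side of the HSALR vehicle mean for 8 of the 10 members, with differences between AICAR effects (log2) of -2.90 for Atf3, -2.36 for Tnfrsf12a, -1.07 for Crem, -1.15 for Srxn1, -1.17 for Panx1, -1.89 for Ptx3, -2.52 for Epgn and 1.26 for Adamts1. As the members were selected for it, this difference was not tested. It was tested for companion genes, whose lists were also chosen with earlier results of these data known. It passed in edgeR for Hbegf (-1.75, adjusted p = 0.029), Runx1 (-1.85, adjusted p = 0.035), Xirp1 (-1.84, adjusted p = 0.0496) and Hspb1 (-1.23, adjusted p = 0.03). Each of these 4 missed the threshold with the epidermal score (differences of -1.82, -1.78, -1.96 and -1.21 in the same order, adjusted p from 0.051 to 0.076) and without the 6 libraries with Krt14 (-1.73, -2.14, -2.38 and -1.57, adjusted p from 0.17 to 0.37), and passed in 4 to 7 of 16 fits that left out 1 mouse. Nhp2 (-0.40), Tubb6 (-1.35) and Rnf115 (-0.75) were named for their likeness to the members over the same libraries, so their differences are a description and no independent support. Xirp1 was also among those like genes.

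Single mice stood apart from the other 4 of their group in 13 of 98 groups of 5 examined. Chance would give about 4.9 among independent groups. These groups share the same mice, and many of the genes were named for their values, so the comparison is no test. Of the 20 groups of members, 1 held such a mouse. It was that of Epgn, with 1.96 CPM in HSALR AICAR mouse S460 and 1.16 to 1.28 CPM in the others. The same mouse was high for Map3k14 (28 CPM), Adamts9 (19.7 CPM), Egfr (30.6 CPM) and Rnf115 (159 CPM). HSALR AICAR mouse S462 was high for Pgd (38.3 CPM) and Prdx3 (256 CPM), and S463 was low for P2rx6 (6.67 CPM) and Ccl2 (1.27 CPM). HSALR vehicle mouse S458 was high for Hbegf (32.5 CPM), Tnfsf12 (14.2 CPM) and Prdx4 (10.6 CPM), and S453 was low for Prdx2 (137 CPM).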

How the results depend on the processing

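Over 1040 member values under alternatives, the sign was kept in all but 4 of the 260 for AICAR in control mice, which were of Mustn1 (-0.19 to 0.12); 11 values moved by more than the spread between mice. The genotype average passed for 9 members, and for 8 without control vehicle mouse S446 (Adamts1) or without the 6 libraries with Krt14 (Srxn1). Leaving out each mouse in turn gave 8 to 9.

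Counts over all genes were less stable. The genotype average called 5789 genes, 5003 to 6132 with each mouse left out and 2802 without the 6 libraries. AICAR in HSALR mice called 4121, 3146 to 4301 with each mouse left out, 2388 with the epidermal score and 899 without the 6 libraries. AICAR in control mice called 2039, 1143 (without S449) to 2186, and 697 without the 6 libraries. The difference called 107, from 15 (without control AICAR mouse S448) to 371 (without HSALR AICAR mouse S460), 536 by DESeq2, 58 with the epidermal score and 0 without the 6 libraries by edgeR, where 1485 had an unadjusted p under 0.05. The causes were not tested. No paired analysis was possible because the replicate names are mouse identifiers and no 2 groups share one.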
